A study of Mus musculus with 18 samples.

Results

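The peroxisomal fatty acid oxidation genes Ehhadh, Hsd17b4, Acaa1a, Acaa1b, Decr2, Ech1, Abcd2, Pex11a and Cat were taken by symbol from the count tables, 9 of the 25124 genes listed, to see whether the other 8 followed Ehhadh in mice that lack caspase-6. All 9 were counted in each library and all passed the filter on low counts in each depot. RNA came from 2 white adipose depots, inguinal (iWAT) and epididymal (eWAT), and from brown adipose tissue (BAT), of wildtype (WT) and caspase-6 knockout (C6KO) male mice, with 3 libraries of each genotype in each of the 3 depots. All mice were on a C57BL/6J background and had eaten a high fat diet with 60% fat for 12 weeks, begun at 10 to 14 weeks of age, so no chow-fed group enters these comparisons. C6KO mice lack the gene in every cell and came from crosses of heterozygous parents that also gave the WT mice, so an effect in fat cells and one in other cells or organs cannot be told apart. The study's methods describe a fast of 10 hours before tissue collection, without naming the C6KO cohort. Whether libraries of different depots came from the same animals is not given in the sources used here.

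Peroxisomes shorten very long chain and branched fatty acids, and dicarboxylic acids made by omega oxidation, and hand the shortened products to mitochondria. An ABC transporter (Abcd2 is one) carries the acyl-CoA in, the first double bond is made with release of hydrogen peroxide, a bifunctional enzyme (Ehhadh, also called L-PBE, or Hsd17b4, called D-PBE) hydrates and dehydrogenates it, and a thiolase (Acaa1a and Acaa1b in the mouse) cleaves off acetyl-CoA. Decr2 and Ech1 handle double bonds in unsaturated chains, Cat breaks down the hydrogen peroxide, and Pex11a helps peroxisomes to elongate and divide. In rodents many of these genes are classic targets of PPARα in the liver, and brown fat is rich in peroxisomes.

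Casp6 itself was lower in C6KO without overlap in each depot. Its mean level was 18.7 CPM (counts scaled to the library total, with TMM normalization) in WT and 6.55 CPM in C6KO iWAT, 20.5 against 5.65 CPM in eWAT and 14.6 against 5.12 CPM in BAT. By edgeR's quasi-likelihood test, the main test used below, only the eWAT difference had an adjusted p under 0.05 (log2 -1.85, adjusted p = 0.0132). The iWAT (-1.51, adjusted p = 0.0751) and BAT values (-1.50, adjusted p = 0.0671) did not, so this test missed the deleted gene there. DESeq2 gave an adjusted p of at most 0.00316 for Casp6 in each depot. Libraries of BAT held 7803108 to 12428683 counts, fewer than those of iWAT (16506034 to 19043523) and eWAT (16717201 to 19139694), so a gene at a given CPM rests on fewer counts in brown fat. Marker genes set some libraries apart. The iWAT library C6KO-3 had 1151 CPM summed over 8 macrophage markers and 284 CPM over 8 hepatocyte markers, where the other 2 C6KO libraries had 362 and 395 CPM and 49.7 and 46.2 CPM. The BAT library WT-2 had 31247 CPM summed over 8 skeletal muscle markers, against 38.1 to 6065 CPM in the other 5 BAT libraries. Adipocyte markers were abundant in each depot, brown adipocyte markers summed to at least 6967 CPM in BAT and at most 158 CPM in white fat, and no epididymal epithelium list passed 0.793 CPM.

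Ehhadh lies on chromosome 16 at 21761285-21787834 (mm10, minus strand) and Cat on chromosome 2 at 103453904-103485153 (minus strand). The paralogs Acaa1a (plus strand, 119341294-119350295) and Acaa1b (minus strand, 119148043-119157093) lie near each other on chromosome 9. Each position is that of the 1 transcript counted per gene, which was the same in the tables of all 3 depots for all 9 genes. Promoters from RefSeq (GRCm38.p6, the same coordinates as mm10; 250 bases before to 50 after the start) were found for 7 of the 9 genes. They were searched on both strands for the DR1 element that PPAR and RXR bind, written as AGGTCA, any base N, and AGGTCA again. An exact DR1 stood in 0.04% of 32851 promoters and in none of the 7, and up to 2 mismatches over its 12 fixed letters stood in 3.86% of promoters and, of the 7, in that of Cat alone. The single half-site AGGTCA, present in 16.26% of promoters, was likewise found only in Cat. The promoters of Ehhadh, the gene with the clearest C6KO effect, of the near-identical thiolase pair, and of Cat are shown 5′ to 3′ in the direction of the gene, with the DR1-like stretch of Cat in capitals.
Ehhadh chr16:21787785-21788084 (minus strand): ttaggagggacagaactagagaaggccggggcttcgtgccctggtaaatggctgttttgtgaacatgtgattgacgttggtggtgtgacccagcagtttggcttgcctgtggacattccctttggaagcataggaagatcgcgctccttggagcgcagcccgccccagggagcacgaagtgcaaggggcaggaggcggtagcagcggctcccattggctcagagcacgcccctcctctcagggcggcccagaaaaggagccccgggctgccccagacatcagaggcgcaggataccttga
Acaa1a chr9:119341044-119341343 (plus strand): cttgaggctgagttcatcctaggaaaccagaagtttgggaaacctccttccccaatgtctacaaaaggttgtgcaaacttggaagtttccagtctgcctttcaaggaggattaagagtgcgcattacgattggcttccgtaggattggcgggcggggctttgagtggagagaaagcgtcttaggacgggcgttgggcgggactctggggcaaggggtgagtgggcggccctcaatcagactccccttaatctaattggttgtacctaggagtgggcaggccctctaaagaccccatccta
Acaa1b chr9:119157044-119157343 (minus strand): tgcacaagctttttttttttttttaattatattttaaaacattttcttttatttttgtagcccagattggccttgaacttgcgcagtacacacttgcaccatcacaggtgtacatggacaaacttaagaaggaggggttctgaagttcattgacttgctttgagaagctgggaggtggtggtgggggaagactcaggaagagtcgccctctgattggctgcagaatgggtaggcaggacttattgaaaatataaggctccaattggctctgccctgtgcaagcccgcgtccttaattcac
Cat chr2:103485104-103485403 (minus strand): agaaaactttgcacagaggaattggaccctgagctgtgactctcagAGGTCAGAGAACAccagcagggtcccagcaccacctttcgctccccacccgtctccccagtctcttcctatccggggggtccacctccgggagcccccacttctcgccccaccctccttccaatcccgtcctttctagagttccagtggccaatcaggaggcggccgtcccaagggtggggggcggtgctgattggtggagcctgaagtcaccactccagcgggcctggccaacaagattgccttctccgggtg
The absence of these letters in so short a window says nothing about PPAR binding elsewhere at these genes.

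Before the effect of the knockout, the depots of WT mice were compared. Ehhadh, Hsd17b4, Decr2, Ech1, Pex11a and Cat had their highest mean level in BAT, and Abcd2, Acaa1a and Acaa1b in iWAT. Per transcript length, in TPM (counts per base of transcript, scaled to a fixed library total) of WT mice, Ech1 was the most abundant of the 9 in each depot and Cat the next. Ech1 reached 4069 ± 904 TPM (SD, n = 3) in BAT, 1045 ± 69.6 in iWAT and 541 ± 36.7 in eWAT. Cat reached 1211 ± 192 TPM in BAT, 1035 ± 78.7 in iWAT and 515 ± 39.4 in eWAT. The 2 means lay within 1 SD of each other in both white depots, so their order there was not resolved.

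Ehhadh had the lowest level of the 9 in white fat, with 38.0 ± 4.52 TPM in iWAT and 17.5 ± 2.41 TPM in eWAT, but held the fifth place in BAT at 139 ± 25.9 TPM. Its neighbours there were Abcd2 at 149 ± 33.3 and Decr2 at 131 ± 23.4 TPM, which did not differ from it beyond their spread. Hsd17b4, the other bifunctional enzyme, held the third place in each depot, at 445 ± 57.8 TPM in BAT, 367 ± 18.6 in iWAT and 209.6 ± 12.8 in eWAT. In WT mice it thus stood well above Ehhadh throughout.

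**Figure D1:**
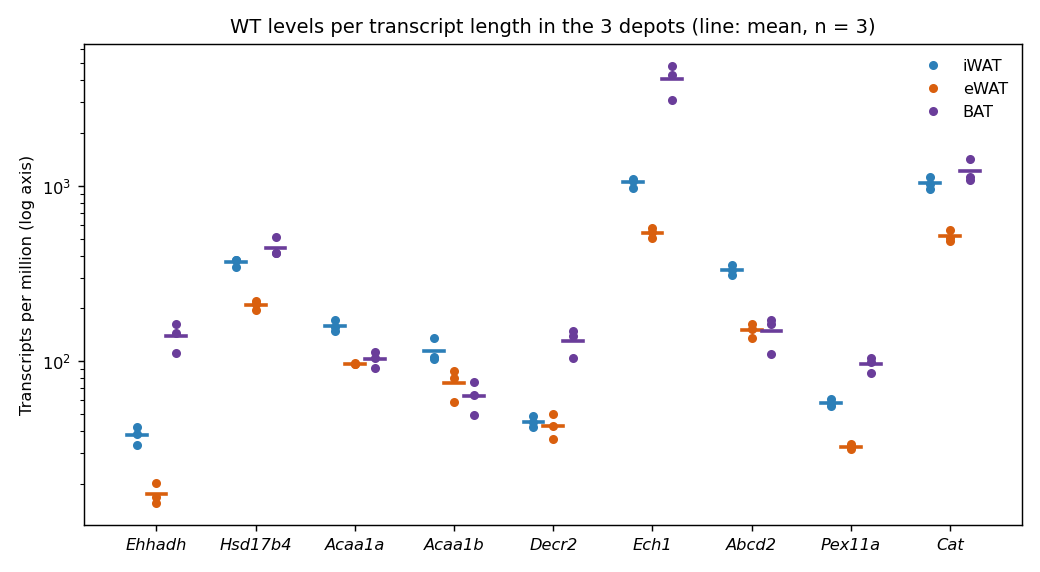
TPM (log axis) of the 9 genes in the 3 WT libraries of each depot, with the line at the mean. Ech1 and Cat lie at the top in each depot, and Ehhadh moves from the lowest place in iWAT (38.0 TPM) and eWAT (17.5 TPM) to the middle in BAT (139 TPM).

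On log2 scale, in the fit of all 18 libraries, 6 of the 9 genes were called higher in BAT than in eWAT of WT mice at a Benjamini-Hochberg adjusted p under 0.05 and a fold of at least 1.5 by edgeR's quasi-likelihood test, where 25% of 15866 genes were, and none was called lower, against 23.6%. The difference was 3.43 (SE 0.25, adjusted p = 7.72e-09) for Ehhadh, 3.38 (SE 0.20, adjusted p = 7.01e-10) for Ech1, 2.07 for Decr2, 1.999 for Pex11a, 1.67 for Cat and 1.53 for Hsd17b4. The fit took all libraries as independent, also for the interactions below, though depots of one mouse may have been sampled. The thiolases and the transporter were not called, with differences of 0.56 for Acaa1a, 0.20 for Acaa1b and 0.40 for Abcd2. Against iWAT, 5 genes were called higher in BAT (20.1% of all genes), Ech1 by 2.30, Ehhadh by 2.17, Decr2 by 1.86, Pex11a by 1.04 and Hsd17b4 by 0.59. Hsd17b4 is close to the fold minimum, and its call was lost under several alternatives. Abcd2 went the other way and was called lower in BAT than in iWAT by 0.86 (SE 0.19, adjusted p = 0.00144; 18.7% of all genes lower).

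Between the white depots 7 of the 9 were called lower in eWAT than in iWAT, where 12.9% of all genes were called lower and 12.8% higher. They were Abcd2, which fell by 1.26, Ehhadh by 1.25, Cat by 1.14, Ech1 by 1.08, Pex11a by 0.96, Hsd17b4 by 0.94 and Acaa1a by 0.86. Acaa1b (-0.74, adjusted p = 0.0853) and Decr2 (-0.21, adjusted p = 0.323) did not pass. In the same libraries the 8 adipocyte markers summed to 25741 to 28197 CPM in iWAT and 10186 to 11916 CPM in eWAT, and the 8 macrophage markers to 1535 to 1703 and 5710 to 6836 CPM. The part of cell makeup in the depot differences was not tested, and in bulk tissue fewer cells of a type and less RNA per cell cannot be told apart.

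Ehhadh, which carries out the middle steps of the peroxisomal cycle, was higher in C6KO than in WT in each depot, by a fold of 2.67 in BAT, 2.54 in iWAT and 2.17 in eWAT. In iWAT its level was 50.9, 38.7 and 45.2 CPM in WT-1 to WT-3 and 119.6, 144 and 78.0 CPM in C6KO-1 to C6KO-3. In eWAT the WT libraries had 18.7, 20.6 and 23.7 CPM and the C6KO libraries 57.3, 37.9 and 41.6 CPM. In BAT the values were 167, 186 and 207 CPM in WT and 624, 532 and 340.3 CPM in C6KO. The genotypes did not overlap in any depot, and the C6KO libraries were more spread than the WT libraries.

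By edgeR's quasi-likelihood test within each depot, the Ehhadh difference (log2, C6KO minus WT) was called in eWAT (1.12, SE 0.17, adjusted p = 0.0419) and BAT (1.42, SE 0.24, adjusted p = 0.0282). In iWAT it was of like size (1.34, SE 0.22) with an unadjusted p of 0.000246, but the adjusted p was 0.121 and it was not called. Called genes were rare in iWAT, 0.00688% higher and 0.0206% lower, against 0.537% and 0.208% in eWAT and 0.169% and 1.07% in BAT. Without the iWAT library C6KO-3, Ehhadh was called (1.53, adjusted p = 0.000561), in a fit that called 2.21% of genes higher and 6.43% lower. Without the BAT library WT-2 it stayed called (1.42, adjusted p = 0.0354), in a fit with 0.24% called higher and 1.05% lower. The BAT call was lost without any of WT-1, WT-3, C6KO-1 or C6KO-2 (adjusted p up to 0.122). The eWAT call was lost in 5 of the 6 fits without 1 library, all but that without C6KO-2 (adjusted p up to 0.168), and in the fit of all 18 libraries (adjusted p = 0.0954). DESeq2, the tool of the study, called Ehhadh higher in all 3 depots, with adjusted p of 2.55e-07 in BAT, 3.24e-06 in eWAT and 8.03e-06 in iWAT. The interaction tests found no difference in the Ehhadh effect between depots, the estimates being -0.22 (SE 0.32) for eWAT against iWAT, 0.07 (SE 0.32) for BAT against iWAT and 0.29 (SE 0.32) for BAT against eWAT. An interval of 2 SE around these still holds differences of more than 0.5 on the log2 scale.

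**Figure D2:**
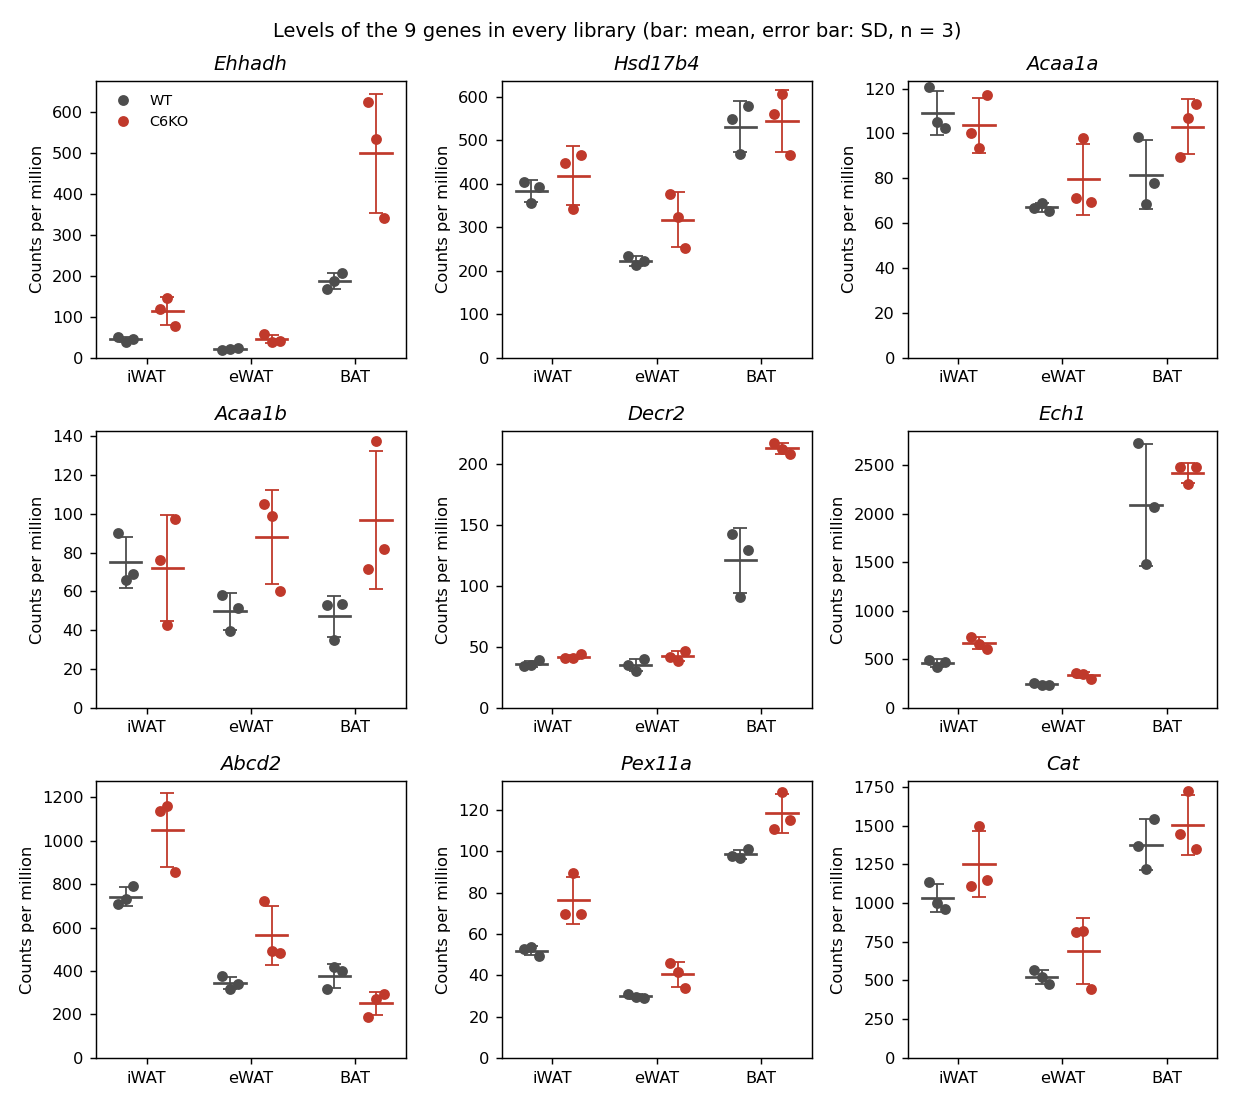
CPM of each of the 9 genes in the 18 libraries, with the mean (bar) and SD (error bar) of 3 libraries per group, WT in grey and C6KO in red. Ehhadh separates the genotypes in each depot, Abcd2 is above WT in white fat and below it in BAT, and Hsd17b4, Acaa1a and Cat overlap in iWAT and BAT.

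None of the other 8 genes was called by edgeR in any depot, in either direction. At an unadjusted p under 0.05, 5 of them were higher in eWAT, 3 in iWAT and 2 in BAT, where 1 was lower. Over all genes tested these shares were 9.81%, 7.25% and 4.56% higher, and 8.64% lower in BAT. DESeq2 called 2 of the 8 in eWAT and 2 in BAT, all higher, but 0 in iWAT, against 2.78%, 1.06% and 1.15% of genes called higher by DESeq2 in those depots. C6KO lay above WT without overlap for 6 of the 8 in eWAT, 4 in iWAT and 3 in BAT, where 12%, 10.9% and 8.07% of all genes tested did so. The median log2 difference of the 8 was 0.46 in eWAT and 0.24 in both iWAT and BAT, beside -0.01, 0.03 and -0.03 over all genes tested. The 8 adipocyte markers had medians of 0.61, 0.45 and 0.12, in the same order.

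**Figure D3:**
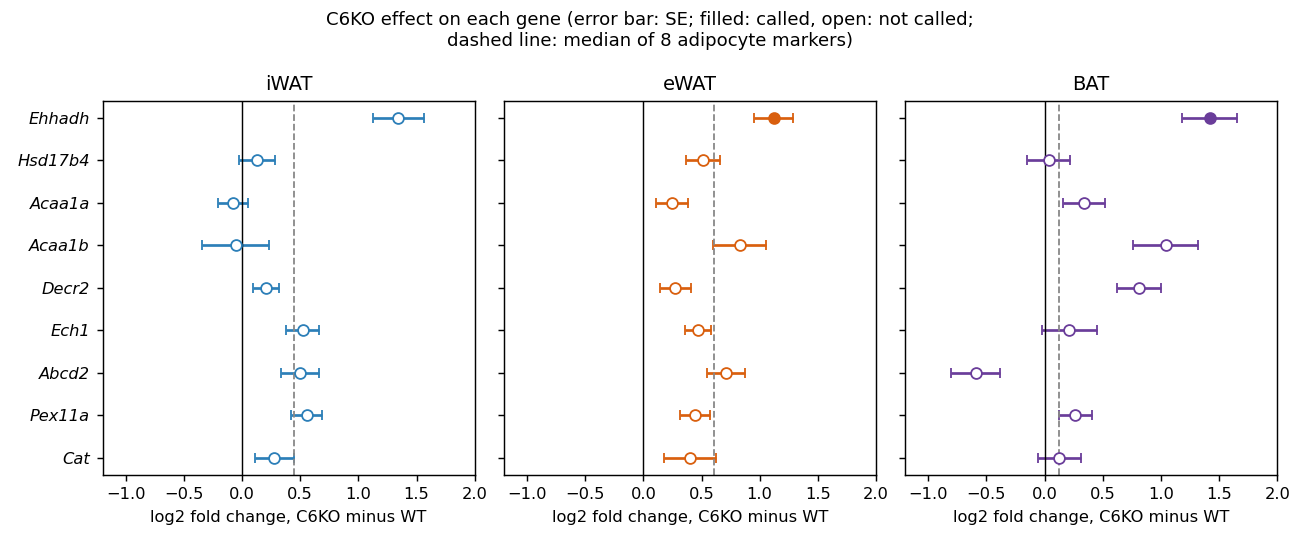
The log2 difference C6KO minus WT of each gene in each depot with its SE (3 libraries per genotype), filled where called, and the median of 8 adipocyte markers as a dashed line. Ehhadh has the highest value in each depot, and Abcd2 is at -0.59 in BAT but 0.50 and 0.71 in iWAT and eWAT.

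Hsd17b4 works on the same step as Ehhadh, with the opposite stereochemistry and a wider range of substrates including bile acid precursors. Its levels in iWAT were 355 to 403 CPM in WT and 341 to 466 CPM in C6KO, and in BAT 467 to 579 and 466 to 607 CPM, so the groups overlapped in both. In eWAT the C6KO libraries (252 to 377 CPM) lay above WT (212 to 234 CPM). The log2 differences were 0.13, 0.51 and 0.03 in iWAT, eWAT and BAT, with adjusted p of 0.724, 0.111 and 0.956. In TPM the ratio of Hsd17b4 to Ehhadh went from 8.94 to 10.4 in WT iWAT to 2.66 to 6.74 in C6KO, and from 2.84 to 3.70 to 1.01 to 1.55 in BAT. As Ehhadh is the divisor, this ratio moves with the Ehhadh difference already given.

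The thiolases carry out the last step. Acaa1a overlapped in iWAT (102 to 121 CPM in WT, 93.5 to 117 in C6KO) and BAT (68.6 to 98.6 against 89.3 to 113), with log2 differences of -0.08 and 0.34, and was 0.24 higher in eWAT. Acaa1b had 90.0, 65.9 and 68.8 CPM in WT and 76.0, 42.8 and 97.4 CPM in C6KO iWAT, with complete overlap. In eWAT it had 58.0, 39.6 and 51.5 CPM in WT and 105, 99.0 and 60.4 CPM in C6KO. In BAT it had 53.1, 35.0 and 53.5 CPM in WT and 71.3, 137 and 82.1 CPM in C6KO. The eWAT and BAT groups did not overlap, and 1 C6KO library in each came close to WT.

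The Acaa1b differences were -0.06 (SE 0.28) in iWAT, 0.83 (SE 0.23, adjusted p = 0.115) in eWAT and 1.04 (SE 0.28, adjusted p = 0.133) in BAT by edgeR, and DESeq2 called it in eWAT (adjusted p = 0.00505) and BAT (adjusted p = 0.0106). Without WT-2, the BAT library with the skeletal muscle RNA and the lowest Acaa1b, the edgeR value in BAT was 0.87 (adjusted p = 0.206). The GENCODE transcripts of the pair align over 1450 bases with 96% identity, and 22.64% of the 100-base windows of Acaa1b also occur in Acaa1a, so some reads cannot be assigned to one or the other. A further 204 of its 1669 exon bases overlap Dlec1 on the opposite strand, and the sources used here do not say whether counting used strand. The counts of both thiolases are thus uncertain.

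Decr2, the peroxisomal 2,4-dienoyl-CoA reductase, stood apart from WT mainly in BAT. It had 142, 91.1 and 129 CPM in the WT libraries and 217, 212 and 208 CPM in the C6KO libraries of BAT, so C6KO lay above WT with little spread. In iWAT the values were 34.3, 35.4 and 39.0 CPM in WT and 41.2, 40.4 and 43.8 CPM in C6KO, again without overlap but close together. In eWAT, 30.1 to 39.6 CPM in WT and 38.4 to 46.6 CPM in C6KO overlapped. The log2 difference in BAT was 0.81 (SE 0.19, adjusted p = 0.0849), not called by edgeR within the depot, though DESeq2 called it (adjusted p = 0.00298). In iWAT and eWAT it was 0.21 and 0.28. Without WT-2, which had the lowest Decr2 in BAT and the skeletal muscle RNA, the BAT value was 0.65 (adjusted p = 0.100 by edgeR). The larger value in BAT was not called as a depot difference (0.60, SE 0.22, adjusted p = 0.350 against iWAT and 0.53, SE 0.22, adjusted p = 0.358 against eWAT).

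Ech1, which shifts double bonds and is found in both peroxisomes and mitochondria, was higher in C6KO without overlap in both white depots, at 605 to 726 CPM against 421 to 496 CPM in iWAT and 300.4 to 361 CPM against 231 to 259.8 CPM in eWAT. In BAT the 3 C6KO libraries (2303 to 2483 CPM) lay inside the WT range of 1478 to 2723 CPM, whose lowest value is WT-2, the library with the skeletal muscle RNA. Its log2 differences were 0.52, 0.47 and 0.21, with adjusted p of 0.167, 0.0687 and 0.754. Without WT-2 the BAT value fell to 0.02.

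Abcd2, the transporter of very long chain acyl-CoA and an adipocyte-rich member of its family, lay on opposite sides of WT in white and brown fat. In iWAT it had 709, 729.6 and 789.6 CPM in WT and 1138, 1160.2 and 854 CPM in C6KO. In eWAT it had 375, 318 and 342 CPM in WT and 723, 490.1 and 481 CPM in C6KO. In BAT it had 316, 419.6 and 399 CPM in WT and 190.2, 270.4 and 292 CPM in C6KO. C6KO was above WT in all white libraries and below WT in all brown ones, and no depot overlapped.

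The Abcd2 differences were 0.50 (SE 0.16, adjusted p = 0.202) in iWAT, 0.71 (SE 0.17, adjusted p = 0.0679) in eWAT and -0.59 (SE 0.21, adjusted p = 0.257) in BAT by edgeR. A position below WT without overlap was shared by 12.1% of genes in BAT. DESeq2 called only the eWAT value (adjusted p = 0.0016), and 2.65% of genes were called lower by DESeq2 in BAT. The effects in BAT and eWAT differed by -1.30 (SE 0.27, adjusted p = 0.0354) in the interaction test of edgeR, which called 0.536% of all genes, and Abcd2 was the only one of the 9 so called. This call was lost in 8 of the 12 fits that left out 1 library of either depot, those without the eWAT libraries WT-1, WT-2, WT-3 or C6KO-1 or the BAT libraries WT-2, WT-3, C6KO-1 or C6KO-2 (adjusted p up to 0.126). Against iWAT the difference was -1.09 (SE 0.27, adjusted p = 0.131), where 0.183% of genes were called. For eWAT against iWAT it was 0.21, and 0% of genes were called there (0 by edgeR). In WT mice BAT had somewhat more Abcd2 than eWAT (0.40, not called), whereas in C6KO mice it had less (-0.90, adjusted p = 0.000617).

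Pex11a was, with Ehhadh, the only gene of the 9 to lie above WT without overlap in all 3 depots. In single depots 10.9% (iWAT), 12% (eWAT) and 8.07% (BAT) of all genes tested lay so. The share that lay so in all 3 was not computed. Its values in iWAT were 52.6, 53.8 and 49.5 CPM in WT and 69.9, 89.5 and 69.7 CPM in C6KO. In eWAT they were 31.0, 29.6 and 28.9 CPM against 45.9, 41.6 and 34.0 CPM. In BAT they were 97.8, 96.7 and 101 CPM against 111, 129 and 115 CPM. WT libraries were close to one another, and the log2 differences were 0.55 (SE 0.13, adjusted p = 0.154), 0.44 (SE 0.13, adjusted p = 0.117) and 0.27 (SE 0.14, adjusted p = 0.456). Without the iWAT library C6KO-3, Pex11a (0.59, adjusted p = 0.0313) and Abcd2 (0.61, adjusted p = 0.0279) were called beside Ehhadh.

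Cat, which encodes catalase, overlapped between genotypes in each depot. In iWAT it had 959 to 1137 CPM in WT and 1109 to 1495 CPM in C6KO, in eWAT 477 to 567 and 443 to 817 CPM, and in BAT 1220.4 to 1545 and 1347 to 1722 CPM. The differences were 0.28, 0.40 and 0.13 with adjusted p of 0.439, 0.408 and 0.813, and in eWAT the lowest library of all was a C6KO one.

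Averaged over the 3 depots in the fit of all 18 libraries, an analysis added after the data had been seen, 2 of the 9 genes were called higher and none lower, where 1.02% of genes were called higher and 4.44% lower. They were Ehhadh (1.29, SE 0.13, adjusted p = 5.3e-05) and Acaa1b (0.60, SE 0.18, adjusted p = 0.0483), the latter at a fold of 1.51 that just reached the minimum. The Acaa1b call was lost in 15 of the 18 fits without 1 library (adjusted p up to 0.103) and with total counts only (adjusted p = 0.0533). Pex11a (0.41, SE 0.07, adjusted p = 0.00234), Decr2 (0.42, SE 0.09, adjusted p = 0.0058) and Ech1 (0.39, SE 0.11, adjusted p = 0.0239) had an adjusted p under 0.05 but a fold below 1.5. Hsd17b4 (0.22), Cat (0.26), Acaa1a (0.16) and Abcd2 (0.20) did not pass, the last being a mean over opposite directions. If depots of one mouse were sampled, these p-values count that mouse more than once.

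The genotypes separate Ehhadh completely, so no correlation across genotypes is given. As a description over the 18 libraries, after removing each group's mean, the log2 CPM of the other 8 had a median Pearson r with Ehhadh of 0.128, beside 0.011 for all 12795 genes ranked, and 5 of the 8 were positive. Pex11a had the highest value (0.39) and Acaa1a the lowest (-0.57). The genes most like Ehhadh in this measure were Ccnt1 (r = 0.88), Kiss1r (0.86), Ankrd27 (0.85), E230013L22Rik (0.85) and Cecr2 (0.85), and no member ranked above place 2190. Those 5 were picked as the highest of 12795 genes over only 18 libraries, and no test was run on them. The libraries share their depth and tissue makeup in this measure.

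The adipocyte markers had differences above 0 in 8 of 8 genes in iWAT and eWAT and 7 of 8 in BAT, with Lipe and Plin1 called in eWAT. Their sum was 25741 to 28197 CPM in WT and 34535 to 38591 CPM in C6KO iWAT, 10186 to 11916 and 13963 to 18216 CPM in eWAT, and 15290 to 22576 and 16978 to 19250 CPM in BAT. Several of these markers are themselves PPARγ targets, so they are not a neutral scale. Per 1000 CPM of these markers Ehhadh was 1.502 to 1.80 in WT and 2.26 to 3.74 in C6KO iWAT, and 7.40 to 12.2 and 17.7 to 36.7 in BAT, without overlap. In eWAT the ranges of 1.57 to 2.24 and 2.18 to 3.15 overlapped slightly. On this scale 1 gene of the 9 was above WT without overlap in iWAT, that being Ehhadh, but 5 in BAT and 0 in eWAT, where 0.592%, 7.19% and 0.578% of all genes tested were. In BAT they were Ehhadh, Acaa1a, Acaa1b, Decr2 and Ech1. Ech1 only just cleared WT, with a lowest C6KO value of 120.654 against a highest WT value of 120.636. Below WT were Hsd17b4 and Acaa1a in iWAT and Pex11a and Ech1 in eWAT, a position shared by 54% and 63.1% of all genes. Abcd2 overlapped in each depot on this scale.

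Macrophage markers had differences below 0 in 8 of 8 genes in each depot, with 4 called in BAT and 0 in the white depots. Their sum was 1535 to 1703 CPM in WT and 362 to 1151 CPM in C6KO iWAT, 5710 to 6836 and 3838 to 4749 CPM in eWAT, and 575 to 732 and 194 to 310 CPM in BAT. Hepatocyte markers summed to 12.6 to 57.2 CPM in WT and 46.2 to 284 CPM in C6KO iWAT, which overlapped, 10.5 to 16.7 and 31.6 to 93.7 CPM in eWAT, and 7.32 to 8.40 and 10.2 to 12.4 CPM in BAT, with Apoa1 and Fgg at 0 in all WT BAT libraries. Of the tested markers on this list 1 of 6 was called higher in eWAT, 0 of 6 in iWAT and 0 of 1 in BAT. Ehhadh is abundant in liver. In eWAT the C6KO library with the most Ehhadh (57.3 CPM) had the least hepatocyte marker RNA (31.6 CPM), and in iWAT the C6KO library with the most hepatocyte RNA (284 CPM) had the least Ehhadh (78.0 CPM). The part of these cell types in the results was not tested.

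**Figure D4:**
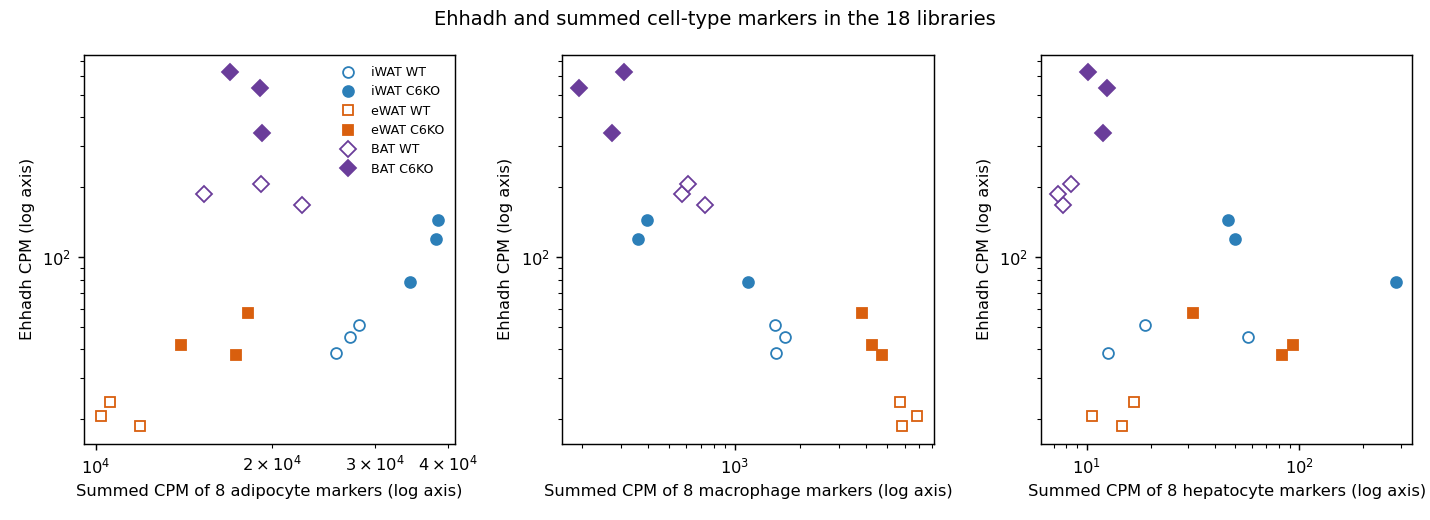
Ehhadh CPM against the summed CPM of 8 adipocyte, 8 macrophage and 8 hepatocyte markers in the 18 libraries (both axes log), open for WT and filled for C6KO. Within iWAT and eWAT the C6KO libraries have more adipocyte and less macrophage marker RNA than WT, and the iWAT library at 284 CPM of hepatocyte markers has the lowest Ehhadh of its group.

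The rest of the peroxisome was read from the same fits. Of 84 further peroxisomal genes, 71 passed the filter in each white depot and 72 in BAT. By edgeR, Slc27a2 alone was called, in eWAT and BAT, and none was called lower. DESeq2 called 4 higher and 1 lower in BAT, 4 higher in eWAT and 3 higher in iWAT, to be read against the shares of all genes called by DESeq2 given above. The median log2 difference was 0.17, 0.16 and 0.11 in BAT, eWAT and iWAT, beside -0.03, -0.01 and 0.03 over all genes tested. C6KO lay above WT without overlap for 17, 20 and 20 of the further genes, where 8.07%, 12% and 10.9% of all genes did so. It lay below WT for 3, 2 and 3, against 1644 of 13595, 1664 of 14889 and 1780 of 14533 genes tested. Of the 8 adipocyte markers 1, 6 and 7 lay above WT and 0 below. Without the iWAT library C6KO-3, of 72 tested 4 were called higher and 3 lower in iWAT, in the fit that called 2.21% and 6.43% of all genes.

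Slc27a2 encodes FATP2, which imports and activates very long chain fatty acids. In BAT it had 204, 152 and 237 CPM in WT and 596, 728 and 459.7 CPM in C6KO, and rose by 1.59 on the log2 scale (SE 0.24, adjusted p = 0.0168). That call was lost in the fit of all 18 libraries (adjusted p = 0.190) and without any of WT-1, C6KO-1, C6KO-2 or C6KO-3 (adjusted p up to 0.105). In eWAT it rested on counts of 2, 0 and 3 for the WT libraries and of 18, 49 and 57 for the C6KO ones (4.51, SE 0.77, adjusted p = 0.0432), a size that depends on the prior count, and the call was lost in the fit of all 18 libraries (adjusted p = 0.229) and without any 1 library but C6KO-2 (adjusted p up to 0.168). In iWAT, WT libraries gave 4, 3 and 25 counts and C6KO libraries 27, 6 and 122 (2.25, adjusted p = 0.385), and was highest in C6KO-3, the library with the most hepatocyte marker RNA. In eWAT too its order over the C6KO libraries was that of the hepatocyte sum (31.6, 83.1 and 93.7 CPM). In BAT no such order was seen, the 3 C6KO sums being 10.2, 12.4 and 11.97 CPM. Its part in the white fat values was not tested. The other 6 genes of import and activation, with the transporter Abcd3 among them, were not called in any depot.

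Among the other oxidation enzymes, DESeq2 called Acad11 (0.62) and Eci3 (1.11) in iWAT, and the smallest p was that of Eci2 in eWAT (0.34, adjusted p = 0.111) and of Acad11 in BAT (0.61, adjusted p = 0.232). On the list of product export genes, thioesterases and nudix enzymes, Acot12 (2.16) and Acot4 (1.03) were called by DESeq2 in BAT. The nudix gene Nudt12 in eWAT (0.44) and Acot6 in iWAT (0.79) had the smallest p of that list. In BAT, Acot12 rested on counts of 28, 15 and 26 for the WT libraries and of 81, 200 and 74 for the C6KO ones. Acot4 and Acot6 belong to a family of related genes. How far reads are shared within the Acot family was not examined, so the counts of its genes are uncertain.

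Ether lipid synthesis, which makes plasmalogens, had a median difference of 0.10, 0.01 and -0.11. Far1, the reductase that supplies its fatty alcohol, was 0.75 lower in BAT (adjusted p = 0.087 by edgeR; called by DESeq2), and was called by edgeR without WT-2 (-0.88, adjusted p = 0.042). It was 0.32 lower in iWAT (adjusted p = 0.224), and Gnpat was 0.49 higher in eWAT (adjusted p = 0.0655). Among the peroxins of matrix protein import only Pex6 was called, by DESeq2 in BAT (0.88). Pex5, the import receptor, had the smallest p in iWAT (0.26) and eWAT (0.30). Of the peroxins of membrane assembly and division, none was called by either tool, and Pex19 in eWAT (0.38) and Pex16 in BAT (0.34) had the smallest p. Of the remaining membrane and matrix proteins DESeq2 called the epoxide hydrolase Ephx2 in iWAT (0.98) and eWAT (1.05) and Pxmp2 in eWAT (0.79), and Pxmp4 had the smallest p in BAT (0.48).

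The receptors that drive many of these genes in other tissues were not called by edgeR in any depot. Pparg was 0.33, 0.30 and 0.25 higher in iWAT, eWAT and BAT and Ppara 0.84, 0.55 and 0.31. Of the 12 receptor and cofactor genes DESeq2 called Ncor1, a corepressor, in iWAT (0.67), and Rxrb had the smallest p in BAT (0.42). Among 22 PPAR targets outside the peroxisome edgeR called Plin5, a lipid droplet protein, in iWAT (1.90, SE 0.18, adjusted p = 0.00823) and Cyp4a10, a fatty acid omega-hydroxylase, in eWAT (2.67, SE 0.49, adjusted p = 0.0468), and none in BAT. Plin5 had 18.3, 25.5 and 25.6 CPM in WT and 79.9, 102 and 75.6 CPM in C6KO iWAT, whereas in eWAT the Cyp4a10 counts were only 7 to 11 per WT library and 26 to 80 per C6KO library. Plin5 lost its call without WT-1, WT-2 or WT-3 (adjusted p up to 0.0894). Cyp4a10 lost its call without any 1 library but C6KO-1 (adjusted p up to 0.191), with total counts only (0.0501) and in the fit of all 18 libraries (0.252). Its counts in C6KO eWAT were 26, 80 and 77 where the hepatocyte sums were 31.6, 83.1 and 93.7 CPM, and in C6KO iWAT 16, 7 and 109, the last in C6KO-3. The part of hepatocyte RNA in these values was not tested. Calls by DESeq2 alone included Vnn1 (1.75) and Pdk4 (1.08) in iWAT, Cyp4a14 (2.52), Fgf21 (1.79), Cpt1b (0.72) and Plin5 (1.56) in eWAT, and Acot1 (1.60) in BAT. The median of this list was 0.36, 0.56 and 0.28 in iWAT, eWAT and BAT, with 19 of 21, 21 of 21 and 18 of 22 genes tested above 0. Over all genes tested the medians were 0.03, -0.01 and -0.03, with 7815 of 14533, 7313 of 14889 and 6267 of 13595 above 0. The 8 adipocyte markers had medians of 0.45, 0.61 and 0.12, with 8, 8 and 7 above 0. Averaged over the depots, 6 genes of this list were called, all higher, with Cyp4a10, Cyp4a14, Pdk4, Plin5 and Vnn1 among them. So were 6 other peroxisomal genes, Acad11, Acot3, Acot4, Eci3, Ephx2 and Slc27a2. Of all genes 1.02% were called higher and 4.44% lower. This mean was added after the data had been seen and may count a mouse more than once. These calls were not followed when single libraries were left out. In white fat Cyp4a10, Cyp4a14 and Slc27a2 fell to 2, 3 and 0 counts in single libraries.

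**Figure D5:**
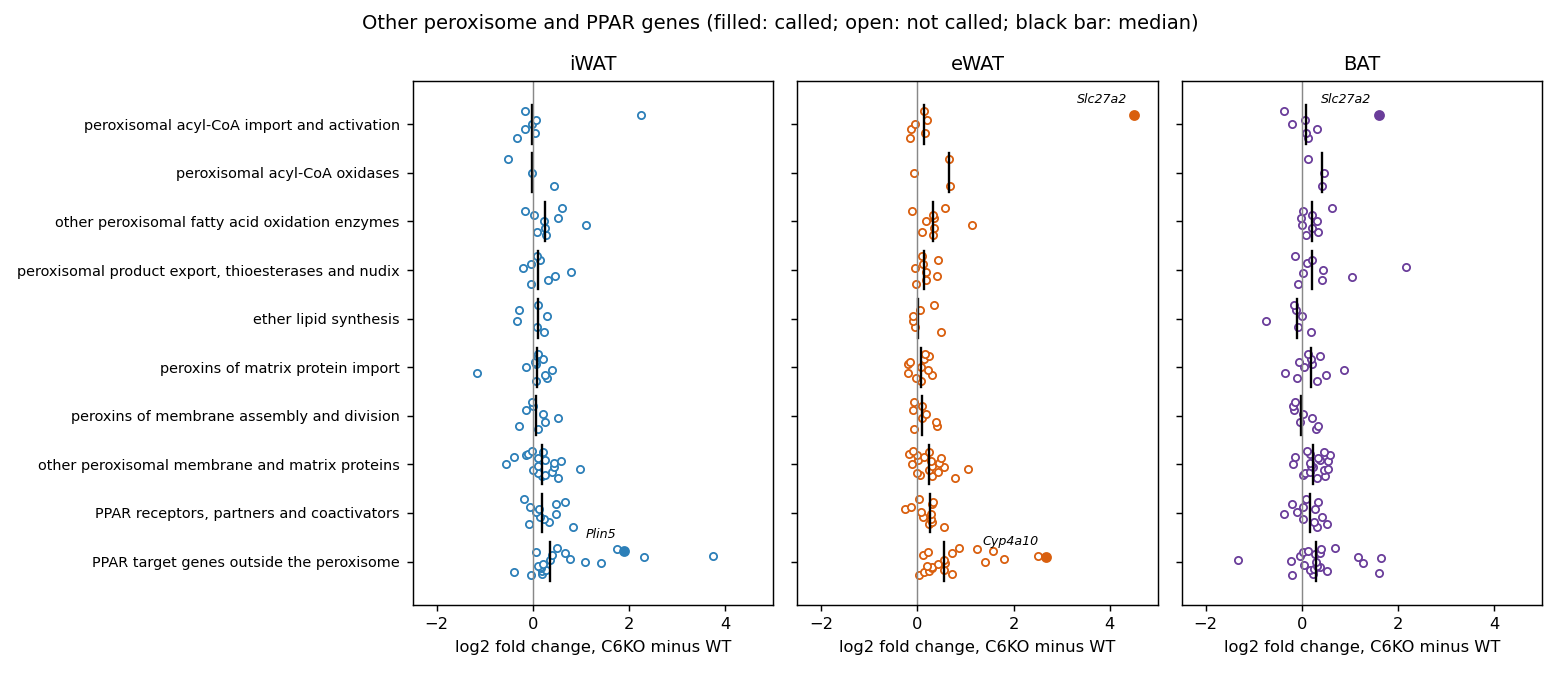
The log2 difference C6KO minus WT of each tested gene of the other peroxisome and PPAR lists by depot, filled where edgeR called it, with the list's median as a black bar. Most genes lie within 1 of 0, and the called ones are Plin5 in iWAT, Slc27a2 and Cyp4a10 in eWAT and Slc27a2 in BAT.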

How the data were processed

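Poly(A) RNA of 18 adipose libraries was sequenced on an Illumina NextSeq. The authors aligned reads to mm10 with STAR and counted exon reads with HOMER, condensing each gene to 1 transcript, and deposited raw counts, whole numbers without normalization, in 1 table per depot. Versions, annotation and the use of strand are not given in the sources used here. Their TPM and DESeq2 steps came after these counts.

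From the counts, edgeR 4.0.16 (limma 3.58.1, R 4.3.3) kept genes with filterByExpr, normalized by TMM and fitted the quasi-likelihood model with 3 C6KO against 3 WT libraries per depot (14533, 14889 and 13595 genes). Depots, interactions and the mean effect came from 1 fit of all 18 libraries (15866 genes). A gene was called where the Benjamini-Hochberg adjusted p over all genes was under 0.05, with a fold of at least 1.5, interactions at the adjusted p alone. SEs follow from the F statistic. TPM was computed from the counts and the listed transcript lengths, and likeness to Ehhadh was computed on log2 CPM (prior count 1). DESeq2 1.42.0 was an alternative, where an adjusted p of NA stayed NA. The tests were run on simulated data with planted changes larger than any C6KO difference of the 9 genes, so smaller changes were not tried.

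The 9 genes and all lists were chosen with earlier results of these data known. Named genes were the 9, Casp6, from each further list the genes called by either tool or else that with the smallest p per depot, the 5 most like Ehhadh, markers by ranges, and overlapping or near-identical genes; some genes of the further lists are not reported here. The mean over depots, the ratios to Ehhadh and to adipocyte markers, and the fits without C6KO-3 and WT-2 were added after seeing the data. Groups and replicate numbers come from the sample titles. Replicates are called biological in the labels. The numbers were not taken to pair samples. Sequences are from RefSeq (GRCm38.p6).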

Additional observations from a re-analysis of the deposited data

Results flagged for a closer look

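The C6KO effect on Abcd2 differed between BAT and eWAT by -1.30 on the log2 scale (SE 0.27, edgeR interaction test, adjusted p = 0.0354 over all genes). It was called because the test of the difference itself passed. All 3 C6KO libraries lay below WT in BAT and all 3 above WT in eWAT. Neither effect was called by edgeR on its own. The call of the difference was lost in 8 of the 12 fits that left out 1 library of either depot (adjusted p up to 0.126).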

How the results depend on the processing

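The direction of Ehhadh, higher in C6KO in each depot, was the same under all alternatives, and the call was not. When each library was left out, the log2 difference ran from 1.26 to 1.63 (BAT), 1.14 to 1.53 (iWAT) and 0.93 to 1.25 (eWAT). Within depots the call was lost in 5 of 6 such fits in eWAT and 4 of 6 in BAT, and gained in iWAT without C6KO-3.

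Of the 9 genes, DESeq2 called 3 in BAT, 3 in eWAT and 1 in iWAT, the fit of all 18 libraries 2, 0 and 1, and edgeR without a filter 2 in eWAT. Of the further peroxisomal genes DESeq2 called 3, 4 and 5 in the order iWAT, eWAT, BAT, the 18-library fit 0 in eWAT and 2 in BAT (Far1 and Pex6, not Slc27a2), no filter 3 in eWAT and 3 in BAT, and at least 10 counts per library 0 in eWAT and 3 in BAT. Over all genes DESeq2 called 666, 619 and 547, the 18-library fit 366, 4 and 525, no filter 32 in iWAT and 321 in eWAT, total counts 67 in eWAT, and at least 10 counts 2 in iWAT, beside 4, 111 and 168 by the reported fits. DESeq2 called 1 gene of the 9 in the interaction of BAT against iWAT. For the mean over depots 1 of the 9 was called with total counts only and 1 to 2 when a library was left out. The cause of these changes was not tested.

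With the replicate number as a block, 62 genes were called in iWAT and 414 in eWAT, where 2 of the 9 and 3 further peroxisomal genes were called. In BAT the block left 0 of the 9 and 0 further genes called, 0 in the interaction of BAT against eWAT, and 1 in the mean over depots. Same-numbered libraries of the 2 genotypes correlated at -0.37 to 0.14 and those of 2 depots of a genotype at -0.11 to 0.33, with no set of 3 pairs all over 0.1, so they were taken to share only a number. In WT, each iWAT library correlated best with its own number in eWAT (0.076 to 0.25), a hint from the data that the labels do not give. The block ended the calls of Ehhadh (adjusted p = 0.0706) and Slc27a2 (0.0564) in BAT, of Abcd2 in the interaction of BAT against eWAT (0.0549) and of Acaa1b in the mean over depots (0.0571).

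Leaving out 1 library at a time gave 3 to 1278 called genes in iWAT (0 to 3 of the 9, 0 to 7 further peroxisomal genes), 2 to 347 in eWAT (0 to 1 and 0 to 1) and 28 to 178 in BAT (0 to 1 and 0 to 2). The interactions gave 0 to 1 of the 9 for BAT against iWAT, gained without the iWAT library C6KO-3, and 0 to 1 for BAT against eWAT. There Abcd2 ran from -1.44 to -1.09.

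Signs turned only for values near 0 or between genotypes. Acaa1b in iWAT ran from -0.36 to 0.21 and Hsd17b4 in BAT from -0.046 to 0.14 when a library was left out. Acot1 in eWAT ran from -0.15 to 0.32, Plin5 in BAT from -0.047 to 0.29 and Eci3 in BAT from -0.046 to 0.14, and Eci3 was also -0.0069 with total counts only and -0.0017 in the 18-library fit. The Abcd2 interaction of eWAT against iWAT ran from -0.0053 to 0.32. Acaa1b in BAT against eWAT of WT mice was -0.089 with total counts only. In C6KO mice the depot differences were 0.14 for Acaa1b in eWAT against iWAT, 0.11 for Acaa1a and 0.54 for Acaa1b in BAT against iWAT, and -0.90 for Abcd2 in BAT against eWAT, opposite in sign to WT. With 3 libraries a group and shallower BAT libraries, a difference that was not called may still exist.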
